A study of Canis lupus familiaris with 3 samples.

Results

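Keratins are the intermediate filament proteins of epithelial cells, and 5 of them are described here: KRT7, KRT8 and KRT19, which are typical of simple, single-layered epithelia, and KRT14 and KRT16, which are typical of stratified epithelia such as epidermis. They were taken as the rows of the value table whose annotation holds one of these gene symbols and no other. All 5 were measured on every array, by 14 of 27648 spots, and are 5 of 5508 named genes tested. The annotation gives their human gene IDs as 3855 for KRT7, 3856 for KRT8, 3861 for KRT14, 3868 for KRT16 and 3880 for KRT19. The tested cells were MDCK-E47 transfectants, that is cells of the dog kidney epithelial line MDCK carrying E47, a helix-loop-helix protein that the TCF3 gene encodes and that binds DNA. Their comparison cells were MDCK-CMV controls, grown in the same medium and mixed with E47 RNA in the other dye on each of the 3 arrays. The labels do not say whether a culture was a clone or a pool. E47 RNA of extraction 1 went on 1 array, in Cy5, and that of extraction 2 on 2 arrays with swapped dyes, in Cy3 and in Cy5, so n = 2 extractions. The labels number the E47 cells 1 and 2 and the design text speaks of different RNA extractions, so the pair could also be different cell lines or clones, and each SD and p-value would then include the difference between them. The series title presents E47 as a repressor linked to E-cadherin and to the epithelial to mesenchymal transition, and the comparison asks which transcripts differ in cells that carry it.

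Keratin filaments are built from pairs of a type I and a type II protein, so a cell needs members of both groups. KRT7 and KRT8 are type II proteins, and KRT14, KRT16 and KRT19 are type I. In simple epithelia KRT8 pairs with KRT18 and can pair with KRT19, while in epidermis KRT14 pairs with KRT5 in the basal layer and KRT16 pairs with KRT6 proteins in wounded or rapidly dividing epidermis. Loss of epithelial keratins is a known feature of cells that pass through an epithelial to mesenchymal transition.

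All 5 keratins were lower in E47 cells, and KRT19 and KRT14 fell most. KRT19 averaged a log2 ratio of −3.54 ± 0.45 and KRT14 −2.57 ± 0.28 (SD, n = 2 extractions), which are 11.6-fold and 5.92-fold lower levels if the logarithm has base 2, and 34.5-fold and 13.0-fold if it is natural. KRT16, KRT7 and KRT8 lay close together at −1.08 ± 0.17, −1.05 ± 0.11 and −0.99 ± 0.20, or 2.12-fold, 2.08-fold and 1.98-fold lower. In the limma test all 5 had an adjusted p under 0.05. Of the named genes 3.85% passed with a lower level and 9.19% passed in either direction. The 5 were chosen with earlier results of these data known, so their excess over these shares is a description. All 5 were below 0 on all 3 arrays, which held for 32.8% of named genes. A log2 ratio of −1 or less on every array was reached by 2 of the 5, KRT19 and KRT14, and by 0.853% of named genes. The ratios are read as E47 over control and in base 2. Neither is stated in the labels: the direction rests on the order of the channels and on CDH1, the E-cadherin gene, which would be higher and not lower in E47 cells if the sign were turned. TCF3, the gene of E47, runs the other way: it was not higher in the cells labelled E47 but at −0.27, −0.28 and −0.35 on the arrays. Its mean of −0.29 did not pass the limma test, at an adjusted p of 0.118, and whether its clones overlap the introduced cDNA is unknown. With the sign turned, all 5 keratins would be higher in E47 cells.

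The arrays agreed in sign but not always in size. KRT19, the shortest keratin and one of simple epithelia and ducts, gave −3.86 on the array of extraction 1, −3.36 on the Cy3 array of extraction 2 and −3.08 on its Cy5 array. Only 2 named genes had a lower mean, so it held rank 3 of 5508, and its ranks on the single arrays were 3, 4 and 5. Its adjusted p was 0.0194 in the limma test, the smallest value that any feature reached. Other genes shared that value, CDH1, F3 and KRT14 among them. Before adjustment the limma p of KRT19 was 7.7e-05, larger than that of CDH1, 5.1e-06. In units of the spread of named genes on each array, these values were −6.97, −7.89 and −6.47 SD. KRT19 therefore stood at the lower end of every array, also after allowance for the narrower spread of the Cy3 array.

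KRT14, the type I keratin of the basal epidermal layer, gave −2.76 on the array of extraction 1, −2.90 on the Cy3 array and −1.84 on the Cy5 array of extraction 2. The Cy5 array of extraction 2 stood apart from the other arrays, although it held the same RNA as the Cy3 array. The gap of 1.06 between the dye-swapped arrays was larger in size than that of 99.0% of named genes, whose gaps had an SD of 0.31. That share was not matched for the size of the change. STARD10 and EPCAM, the genes ranked next to KRT14 by mean, had gaps of −1.39 and −1.37. The sign of the KRT14 gap was opposite to the usual one. Among the 212 named genes that passed with a lower level, the median gap, Cy5 minus Cy3, was −0.19. The part of the dye in the KRT14 value was not tested. KRT14 held rank 7 by its mean, with ranks 11, 5 and 21 on the arrays, and its adjusted p was 0.0194 in the limma test.

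**Figure D1:**
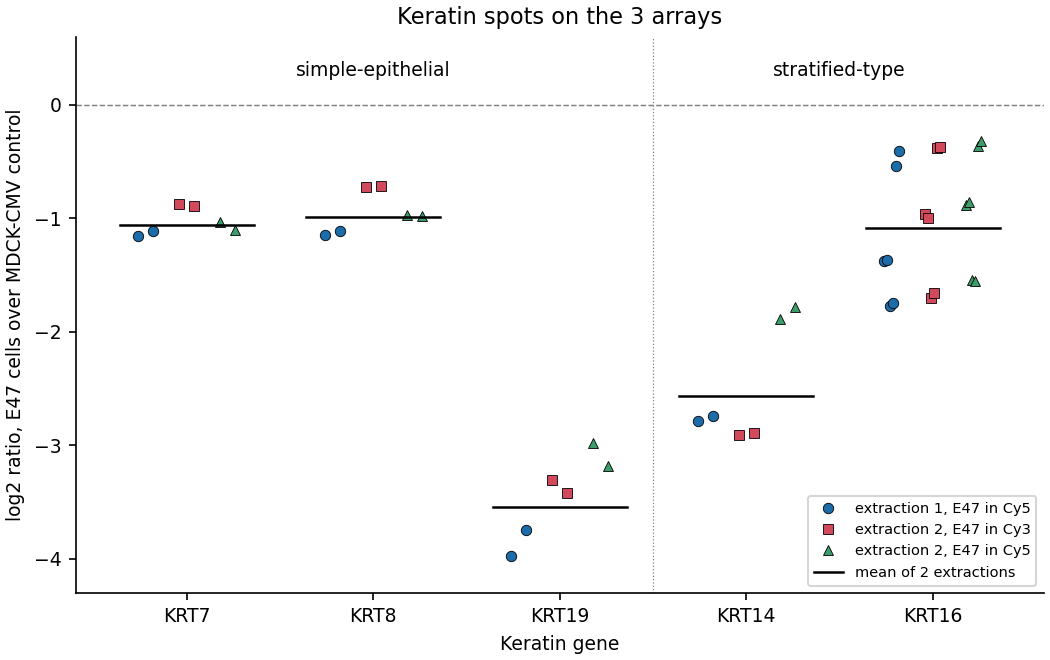
Log2 ratio of E47 cells over MDCK-CMV control cells (y axis) for every spot of KRT7, KRT8, KRT19, KRT14 and KRT16 (x axis), with the array in colour and marker shape and the mean of 2 extractions as a black line. All spots lie below 0, KRT19 lies lowest at a mean of −3.54, and the 6 KRT16 spots fall into 3 separate levels on each array.

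KRT7 and KRT8, the type II keratins of simple and glandular epithelia, had nearly the same ratios. KRT7 gave −1.13, −0.88 and −1.07 in the same order of arrays, and KRT8 gave −1.13, −0.72 and −0.97. For both genes the Cy3 array gave the smallest change, and in units of the array spread KRT7 was at −2.05, −2.07 and −2.24 SD and KRT8 at −2.04, −1.69 and −2.05 SD. Scaled in this way, KRT7 no longer stood out on the Cy3 array, whereas KRT8 still had its smallest change there. KRT7 minus KRT8 averaged −0.07 ± 0.09 (SD, n = 2 extractions), a difference smaller than the spread between extractions. Their adjusted p-values were 0.0241 and 0.0309 in the limma test.

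KRT16, a keratin that epidermis raises on injury, gave −1.20, −1.01 and −0.92 as the mean of 6 spots, with an adjusted p of 0.0251 in the limma test. These means hide a difference within each array. The single KRT16 clone stands at 3 places in the table, each time as 2 adjacent spots. At the first place it gave −1.37, −0.98 and −0.87, at the next −1.76, −1.68 and −1.55, and at the last −0.47, −0.37 and −0.34, each in the order extraction 1, Cy3 array and Cy5 array of extraction 2. The order of the places was the same on all 3 arrays, and no values of different places overlapped. Tested alone, an alternative chosen after the data were seen, the first and second places passed the limma test with adjusted p-values of 0.0285 and 0.0142, while the last did not, at a mean of −0.42 and an adjusted p of 0.0727. Of the 7717 places of named clones tested in that fit, 5.43% passed with a lower level.

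The KRT16 places differed far more than adjacent spots did. Adjacent spots of the 5 keratins differed by medians of 0.04, 0.02 and 0.05 on the 3 arrays and by at most 0.23, whereas the highest and lowest KRT16 places differed by 1.27 in their means. Among 867 clones of named genes that stand at several places, the median range between places was 0.14, and 98.6% had a smaller range than the KRT16 clone. Larger ratios leave more room for such ranges. Among the 163 of these clones with a mean log2 ratio of at least 0.5 in size, the median range was 0.23. Of these 163, 95.1% had a smaller range than the KRT16 clone. Neither share was matched for the number of places, 3 for KRT16, and more places also leave room for a larger range. The moderated SE of KRT16, 0.10, leaves out the difference between its places, because all spots were averaged before the fit. KRT7, KRT8, KRT14 and KRT19 each stand at 1 place only, so the same check cannot be made for them.

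**Figure D2:**
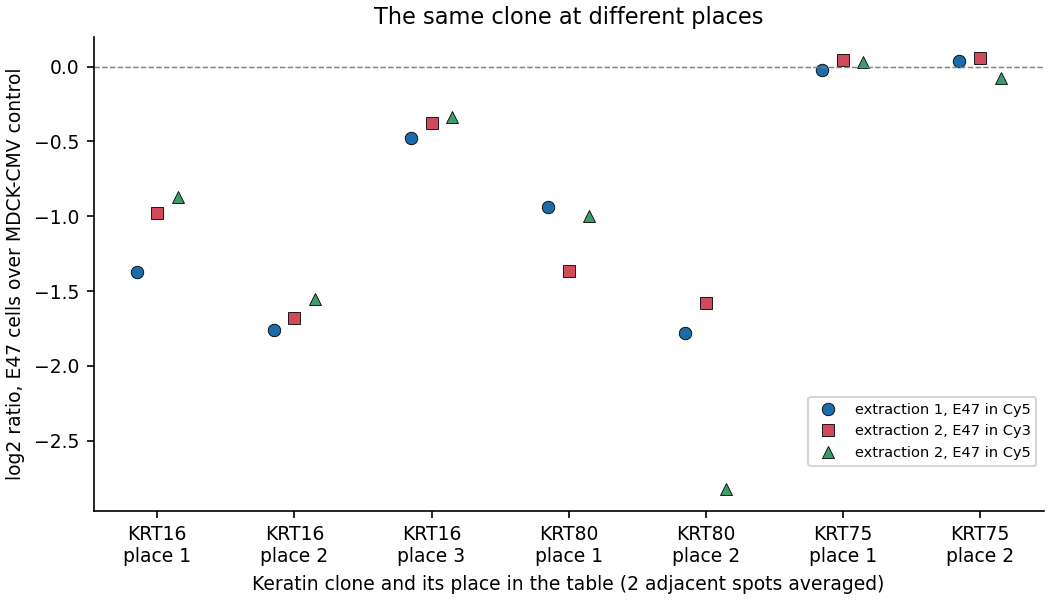
Log2 ratio of E47 cells over MDCK-CMV control cells (y axis) for the KRT16, KRT80 and KRT75 clones at each place where they stand in the table (x axis), each point being 2 adjacent spots averaged on 1 array. KRT16 keeps the same order of places on all 3 arrays, with means from −1.69 at its second place to −0.42 at its last, while both places of KRT75 lie near 0.

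By size of change KRT19 came first and KRT14 next, while KRT16, KRT7 and KRT8 had no fixed order. All 3 array values of KRT19, from −3.86 to −3.08, lay below all 3 of KRT14, from −2.90 to −1.84, and these lay below all values of KRT16, from −1.20 to −0.92. KRT19 minus KRT14 was −1.10, −0.46 and −1.24 on the arrays, and KRT14 minus KRT16 was −1.56, −1.89 and −0.92. The ranges of KRT16, KRT7 and KRT8 overlapped, and their order differed between arrays. These are differences between ratios, and the amount of each transcript in either kind of cell is not known from them. In a culture measured in bulk, fewer cells with a transcript and less of it per cell cannot be told apart.

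**Figure D3:**
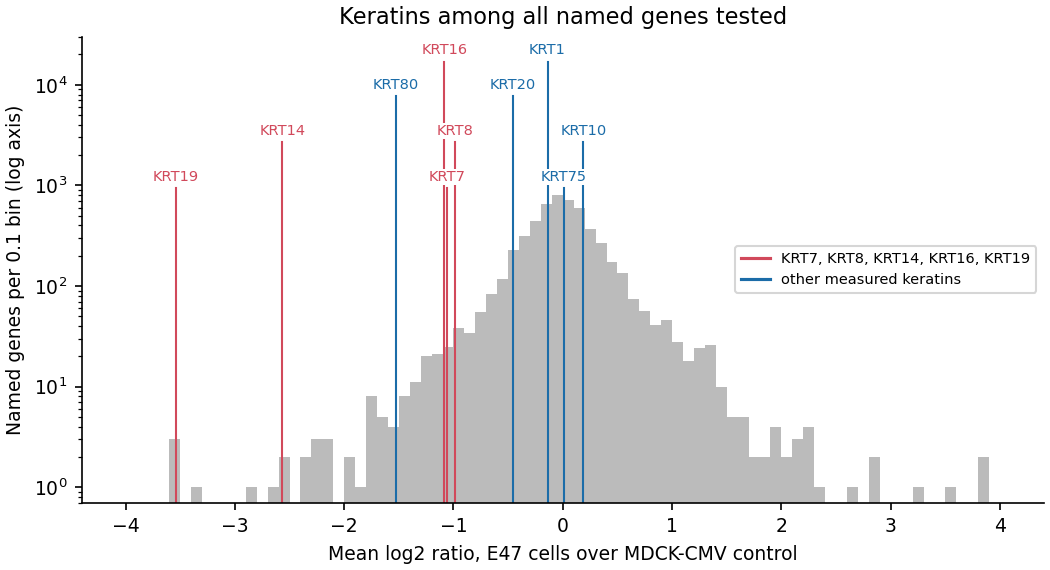
Distribution of the mean log2 ratio, E47 cells over MDCK-CMV control cells (x axis), over the 5508 named genes tested (y axis, genes per bin, log axis), with lines at the 10 keratins measured on every array. KRT19 and KRT14 lie in the lower tail at −3.54 and −2.57, KRT16, KRT7 and KRT8 lie near −1, and 4 other keratins lie between −0.46 and 0.19.

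Simple-epithelial and stratified-type keratins did not separate. On average KRT7, KRT8 and KRT19 stood at −1.86 ± 0.25 and KRT14 and KRT16 at −1.82 ± 0.22 (SD, n = 2 extractions). The difference, simple minus stratified, was −0.06 on the array of extraction 1, 0.30 on the Cy3 array and −0.33 on the Cy5 array of extraction 2, with a mean of −0.04. Its sign thus turned between dye-swapped arrays of the same RNA, and no test was made because the genes were chosen with results known. Each class held 1 gene with a large and at least 1 with a small change. Without KRT19 the difference was 0.85, 1.15 and 0.36, so that KRT7 and KRT8 changed less than the stratified-type pair on every array. With the second KRT16 place alone it averaged 0.27, and with the last alone −0.37.

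Grouped by filament type, the difference had 1 direction. Type I keratins, KRT14, KRT16 and KRT19, minus type II keratins, KRT7 and KRT8, gave −1.48, −1.62 and −0.92 on the arrays, with a mean of −1.38 ± 0.14 (SD, n = 2 extractions). KRT19 and KRT14 carried this difference: KRT7 and KRT8 minus KRT16 was 0.07, 0.21 and −0.10, which is no consistent order. This grouping was looked at after the values were seen and is given as a description.

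**Figure D4:**
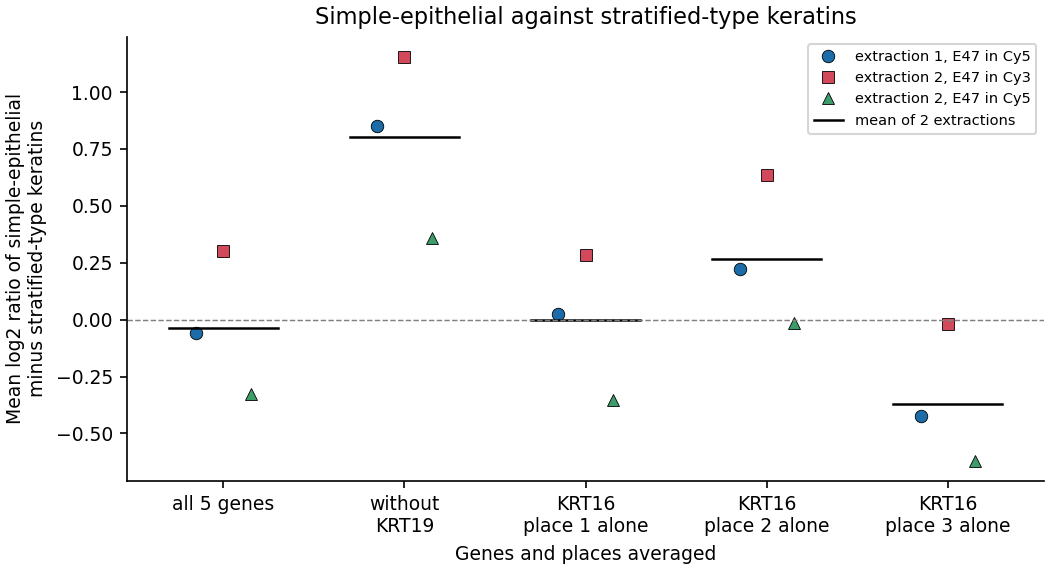
Mean log2 ratio (E47 cells over control) of the simple-epithelial keratins minus that of the stratified-type keratins (y axis) on each array, for all 5 genes, without KRT19, and with each KRT16 place alone (x axis); the black lines are means of 2 extractions. With all 5 genes the arrays lie on both sides of 0, from −0.33 to 0.30, and without KRT19 all lie above 0.

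The calls of 3 of the 5 keratins rested on the Cy5 array of extraction 2. Without it, KRT19 and KRT14 passed the limma test, both with an adjusted p of 0.0395, against 0.635% of named genes that passed with a lower level. KRT7, KRT8 and KRT16 then had log2 ratios of −1.01, −0.92 and −1.11, close to those with all arrays, and adjusted p-values of 0.0584, 0.0850 and 0.0515. Without the Cy3 array all 5 passed. The p-values rest on 2 extractions and take the control as a common reference, so they leave out its own spread.

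Among the 6 other keratins on the array, KRT80 fell as well. KRT80, a type II keratin found in many epithelia, gave −1.36, −1.47 and −1.91 on the arrays, with a mean of −1.53 ± 0.24 (SD, n = 2 extractions) and an adjusted p of 0.0207 in the limma test. Its clone too stands at several places: the first gave values from −1.37 to −0.94, and the second −1.78, −1.58 and −2.83. Both places passed alone, at means of −1.06 and −1.99, and the second was lower on every array. With scaled arrays the adjusted p of KRT80 was 0.0502.

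KRT20, a type I keratin of gut lining and bladder surface cells, gave −0.36, −0.50 and −0.62 at 1 place and had no value on any array at its other place. Its mean of −0.46 did not pass, at an adjusted p of 0.0807 in the limma test. It passed when named genes were tested alone, at 0.0409. KRT1 and KRT10, which pair in the upper layers of epidermis, were at −0.14 and 0.19, with adjusted p-values of 0.306 and 0.235. KRT75, a hair follicle keratin, was at 0.01, with an adjusted p of 0.938, and its places, at 0.01 each, did not differ as those of KRT16 and KRT80 did. KRT18, the filament partner of KRT8, has 2 spots of 1 clone, and neither has a value on any array. So 6 of 10 measured keratins fell, none rose and 4 did not pass, with a median of −1.02 over the 10. Over all named genes 3.85% passed lower and 9.19% in either direction, with a median of −0.02. The 6 include the 5 keratins that were chosen with earlier results known. Of the 5 other measured keratins 1 fell, and their median was −0.14. The count over all 10 was 3 without the Cy5 array of extraction 2 and 7 when named genes were tested alone.

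Human keratin clones were hybridised with dog RNA, and keratins of 1 type resemble each other, so a clone can bind transcripts of related keratins, and signals of related keratins cannot be told apart. The dog gene table holds all 11 keratin symbols on the array. In the dog assembly UU_Cfam_GSD_1.0, KRT16 and KRT14 are neighbours, with no other protein-coding gene between them, and 1 gene lies between KRT14 and KRT19. KRT8 lies beside KRT18, and 27 genes lie between KRT7 and KRT8, within the cluster of type II keratins. The sources used here name no genome build for the clones, so no coordinates are printed.

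None of the nearest measured genes beside these clusters passed with a lower level, which 3.85% of all named genes did. So few genes can hold none at that share. Beside the type I cluster, the 3 nearest measured genes on each side were JUP, NT5C3B and CNP, and CCR7, TOP2A and RARA. Of these TOP2A, a DNA topoisomerase of dividing cells, rose to 1.38, and the others had values from −0.46 for JUP to −0.06 for RARA and did not pass. Beside the type II cluster, NR4A1, DAZAP2 and TFCP2 on 1 side and EIF4B, TNS2 and IGFBP6 on the other did not pass. EIF4B, a translation initiation factor and the gene next to that cluster, had the lowest value, −1.03, with −1.38 and −1.06 on the Cy5 arrays, −0.31 on the Cy3 array and an adjusted p of 0.0696 in the limma test. These neighbours were looked up after the values were seen.

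Genes that anchor keratin filaments to the cell surface fell in part. Of 14 tested genes of desmosomes and hemidesmosomes, the junctions at which keratins end, 3 passed with a lower level and none higher. Their median log2 ratio was −0.40, while 3.85% of all named genes passed with a lower level. The list was chosen with earlier results known, so these counts are a description. DSP, desmoplakin, which ties keratins to the desmosome, gave −1.09, −1.10 and −1.37, with a mean of −1.16 ± 0.10 (SD, n = 2 extractions). DSC2, a desmosomal cadherin, averaged −0.83, and ITGB4, the integrin subunit of hemidesmosomes, averaged −0.81. Without the Cy5 array of extraction 2, DSC2 and ITGB4 had log2 ratios of −0.81 and −0.79 and adjusted p-values of 0.0691 and 0.0931. EVPL, envoplakin, chosen after its values were seen, had a lower mean than DSP, −1.20, but did not pass, at an adjusted p of 0.0576, and its arrays ranged from −2.51 to −0.61. The changes of DSP, DSC2 and ITGB4 were smaller than those of KRT19 and KRT14 on every array.

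None of 4 other intermediate filament genes tested, LMNB2, LMNA, DES and GFAP, passed the limma test in either direction, and none had an unadjusted p under 0.05. With 9.19% of all named genes passing in either direction, 4 genes can easily hold none. The nuclear lamin genes LMNB2 and LMNA had means of 0.17 and −0.13, with adjusted p-values of 0.281 and 0.360 in the limma test. VIM, which encodes vimentin, the filament protein of mesenchymal cells, has 2 spots with values on the Cy3 array only, −0.17 and −0.20, so whether it differed could not be tested.

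No tested gene of keratinocyte differentiation, the programme that accompanies stratified keratins in skin, passed the limma test. Among all named genes 9.19% passed in either direction, and a list this short can hold none at that share. All 6 tested had means between −0.22 and 0.41, with a median of −0.09. S100A7, a calcium-binding protein of inflamed epidermis, was highest at 0.41 with an adjusted p of 0.0761, and SPRR3, a protein of the cornified envelope, lowest at −0.22 with an adjusted p of 0.186, both in the limma test. S100A7 alone had an unadjusted p under 0.05, at 0.0101. It gave 0.45, 0.15 and 0.60 on the arrays. In the limma test it passed without the Cy3 array, at an adjusted p of 0.0477. It also passed when named genes were tested alone, at 0.0355.

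Among 13 tested transcription factors known from keratin genes, 3 passed with a lower level and none with a higher one. Their median was −0.19, beside 3.85% of all named genes lower. This list too was chosen with earlier results known. KLF4, a zinc finger factor of the epidermal barrier, gave −1.37, −0.94 and −0.92, with a mean of −1.15 and an adjusted p of 0.0349 in the limma test. FOS and JUNB, subunits of the dimeric factor AP-1, averaged −0.87 and −0.72, with adjusted p-values of 0.0429 and 0.0466. All 3 lost their calls without the Cy5 array of extraction 2, at adjusted p-values of 0.0630, 0.116 and 0.105, with log2 ratios of −1.16, −0.81 and −0.77. TP63, the regulator of basal epidermal cells, was not analysed here. Among 10 tested proteins that bind or modify keratins, 2 fell and 8 did not pass, with a median of −0.16, again beside 3.85% of all named genes lower. CASP6, a caspase that cleaves keratins in dying cells, averaged −1.01, and MAPK8, a stress kinase that phosphorylates KRT8, averaged −0.91. Without the same array their log2 ratios were −0.93 and −0.90 and their adjusted p-values 0.119 and 0.0584.

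**Figure D5:**
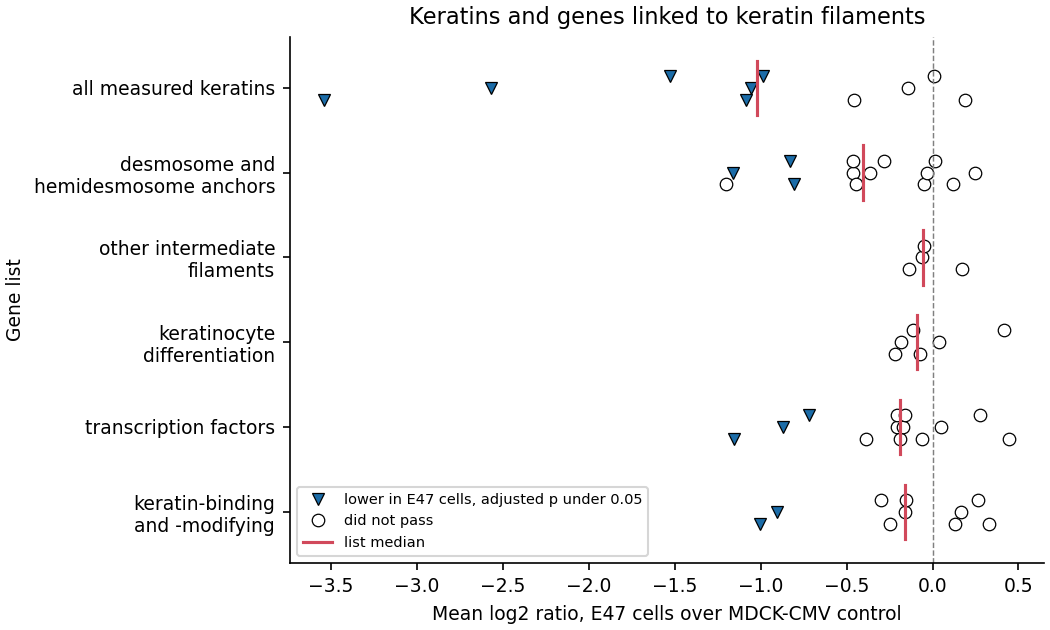
Mean log2 ratio, E47 cells over MDCK-CMV control cells (x axis), of each tested gene in 6 lists (y axis), with filled triangles for genes that passed the limma test with a lower level, open circles for genes that did not pass, and the list median as a line. The keratin list has the lowest median, −1.02, but it includes the 5 keratins chosen with earlier results known. The 5 other measured keratins have a median of −0.14. No gene of the lists passed with a higher level.

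By pattern over the 3 arrays, the named genes nearest to the keratins were mostly of other families. The named gene nearest to KRT19, by Euclidean distance of the 3 log2 ratios, was CDH1 at a distance of 0.70, with −3.52, −3.83 and −3.47 on the arrays. F3, which encodes tissue factor, followed at 1.07 and KRT14 at 1.72. Nearest to KRT14 were TIMP3, a metalloproteinase inhibitor, at 0.69, RGS2, a regulator of G protein signalling, at 0.88 and HERPUD1, a stress protein of the endoplasmic reticulum, at 1.02. Nearest to the mean of KRT7, KRT8 and KRT16 were KCNK1, SPTBN1 and CALR, at 0.16 to 0.20. The distances grow where genes are sparse, so those at large changes and at small changes cannot be compared.

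Markers of other cell types were mixed. All 5 tested markers of simple epithelium were lower, from CDH1 at −3.59 to KRT8 at −0.99, beside 3.85% of all named genes. KRT7, KRT8 and KRT19 are among these markers, and CDH1 was used to read the direction of the ratios. Only EPCAM, at −2.54, is therefore a further gene. It gave −2.23 on the array of extraction 1, and −2.16 on the Cy3 and −3.52 on the Cy5 array of extraction 2. KRT14 and KRT16 were the only stratified markers tested. With a higher level, 294 of the 5508 named genes passed. Of 4 tested mesenchymal markers, SPARC, FN1 and COL1A2 rose to 2.85, 2.29 and 0.68 and ACTA2 was at −0.11. Of 2 tested blood cell markers PTPRC rose to 1.03 and CD68 was at 0.03. Their part in the keratin values was not tested. Ratios alone do not show whether a marker is present, so the epithelial identity of the control cells could not be checked by level. The column medians of the arrays lay between −0.0051 and 0.0027, the spread of all spots between 0.43 and 0.62, and 24771 to 25537 of the 27648 spots had a value.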

How the data were processed

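The authors deposited log ratios, read here as log2, in 1 column for each two-colour array of human cDNA clones. How they corrected and normalized them, and in which base and direction the ratios run, is not stated in the labels or the file. Base 2 was read from the range of the values, and the natural logarithm is possible. All columns correlated positively (r = 0.61 to 0.77), the dye swap included, so no sign was turned. Signal over background is unknown. Gene symbols are those of the platform annotation. The 23275 spots measured on every array were kept and averaged per gene and array, and the 2 arrays of extraction 2 were averaged. All 14008 features, unnamed spots included, were tested against 0 with limma 3.58.1 in R 4.3.3 (lmFit, eBayes, 2-sided, Benjamini-Hochberg adjustment over all features, threshold 0.05), with 1 residual and 2.71 prior degrees of freedom. The labels do not say whether the 2 extractions came from 1 culture, separate cultures or separate clones, so p-values measure only the spread between them, which may be technical. Figures were drawn with matplotlib 3.10.9.

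The 5 keratins, the gene lists and the rule for genes named were chosen with earlier results of these data known. Counts that passed among them are therefore descriptions beside the shares of all named genes. The rule takes the 5 keratins, CDH1, TCF3, all other measured keratins, of each further list up to 4 genes that passed or else the 2 largest, and the 3 genes nearest in pattern. Sequences were not analysed here. Alternatives changed the arrays used, centring, scaling, averaging, missing spots, features tested, eBayes and the threshold.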

Additional observations from a re-analysis of the deposited data

How the results depend on the processing

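KRT14 and KRT19 stayed lower with an adjusted p under 0.05 in all 11 alternatives with a test, the highest being 0.0395. Each has 1 clone at 1 place with 2 spots, so the alternatives in averaging and missing spots could not move their ratios. A call at 0.05 also cannot be lost at 0.10. Leaving out an array or an extraction gave log2 ratios from −1.13 to −0.98 for KRT7, −1.13 to −0.85 for KRT8 and −1.20 to −0.97 for KRT16. Without the Cy5 array of extraction 2 they were −1.01, −0.92 and −1.11 and lost their calls, and KRT16 also lost its call at its last place alone, at −0.42. The number of named genes that passed was 506, and ran from 109 to 919 when either array of the dye swap was left out; it was 1175 when named genes were tested alone and 1244 at an adjusted p under 0.10. Of the 6 keratins that passed, 3 did so without the Cy5 array. Simple minus stratified keratins ran from −0.19 to 0.12 when arrays or extractions were left out, and was 0.0055 with scaled arrays, −0.0036 with the median over spots, and −0.0036, 0.27 and −0.37 with the first, second and last KRT16 place alone. KRT75 was at −0.0074 without the Cy3 array and up to 0.03 in the others. The adjusted p of JUNB was 0.0782 on scaled arrays and 0.0507 after median centring, so its call was lost there too. The cause was not tested in any of these cases. Read as natural logarithms, the fold changes would be 34.5 for KRT19, 13.0 for KRT14, 2.96 for KRT16, 2.87 for KRT7 and 2.68 for KRT8. A fit of all 3 arrays with extraction as a random block could not be made, because no correlation could be estimated from 1 repeated extraction. Precision is limited by the number of extractions, 2.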
